A study of Homo sapiens with 6 samples.

Results

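The RUNX, GATA, TAL1 and GFI1 progenitor factors are 10 genes for transcription factors and cofactors of blood stem and progenitor cells, namely RUNX1, RUNX2, RUNX3, CBFB, GATA1, GATA2, TAL1, LYL1, LMO2 and GFI1. They were chosen by name, and all 10 were found among the 58381 gene identifiers of the deposited count table. RNA was sequenced from MOLM-13 cells after 20 h with DB2115 at 5 µM, a compound known from the labels by this code name alone, or with vehicle (0.001% DMSO). MOLM-13 is an established human line of acute myeloid leukaemia. Its MLL-AF9 fusion and its FLT3 internal tandem duplication are shared by both groups. The table holds 3 columns per group, and in 98.5% of genes with at least 200 counts in each group the last was within 1% of A and B added together. The labels list 3 samples per group, but this column was left out as a sum, and 2 libraries per group were compared, called DB2115 A and B and vehicle A and B after the column letters. A single cell line was used, and whether the libraries are separate cultures is not stated in the labels, so each p-value rests on the spread among these libraries alone, and that spread may be technical. In bulk RNA, fewer cells with a transcript and less transcript per cell cannot be told apart.

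RUNX proteins bind DNA through the Runt domain as heterodimers with CBFB, which binds no DNA itself and raises their affinity. GATA1 and GATA2 are zinc-finger factors of erythroid, megakaryocytic, mast cell and stem cell programmes, and TAL1 and LYL1 are related basic helix-loop-helix factors that pair with E-proteins and are bridged to GATA factors by LMO2 and LDB1. GFI1 is a zinc-finger repressor of granulocyte precursors that recruits the LSD1 and CoREST corepressor complex. RUNX1, GATA2, TAL1, LYL1 and LMO2 are known to occupy shared enhancers in blood progenitors together with the ETS factors ERG and FLI1.

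The libraries held 40067286 and 39647758 counts with DB2115, against 36547900 and 42446253 counts in vehicle. Levels are given as CPM, counts scaled to a fixed library size, after TMM correction for composition, and 3 counts in a library correspond to 0.0725 to 0.0854 CPM. All 13 myeloid markers listed had enough counts to be tested. Of these 9 rose and 3 fell, which is 92.3% called, against 64.1% of all tested genes. Among them MPO (log2 fold change 2.46), ITGAM (2.99) and FCGR2A (1.23) rose, and PTPRC (-2.60), FLT3 (-1.63) and LYZ (-1.25) fell. Of 29 erythroid genes, 13 had no count in any library, including SLC4A1, AHSP and the beta-like globins HBD, HBG1, HBG2 and HBE1. Of 24 megakaryocyte genes, 6 had none, including PF4, PPBP and GP1BB, and of 22 mast cell, basophil and eosinophil genes, CPA3, CLC and PRG3 had none. The T and NK cell list (10 genes) summed to 154 CPM in both DB2115 libraries, against 169 and 175 CPM in vehicle, with CD2 and CD8B at 0. Of the 4 tested genes of this list 3 rose and 1 fell, which is 100% called, against 64.1% of all tested genes. NKG7 (2.12), CD5 (2.58) and CD3E were higher, and NCAM1 (-1.11) was lower. CD3E had 46 and 10 counts with DB2115 and 1 and 0 counts in vehicle. The B-cell list (7 genes) summed to 28.1 and 30.4 CPM with DB2115, against 50.3 and 52.1 CPM in vehicle. Of its 5 tested genes 4 rose and 1 fell, which is 100% called, against 64.1% of all tested genes. CD79A (3.35) and CD79B (4.52) were higher and PAX5 (-2.17) was lower. The stromal and epithelial list (11 genes) summed to 282 and 294 CPM with DB2115, against 91.4 and 79 CPM in vehicle. Of its 8 tested genes 5 rose and 0 fell, which is 62.5% called, against 64.1% of all tested genes. KRT8 (4.87), PDGFRB (5.48) and PECAM1 (1.21) were higher. The part of these lists in the results on the factors was not tested.

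The core binding factor genes RUNX1 and CBFB, with RUNX2 and LYL1, did not pass the test, whereas RUNX3, GATA2, TAL1 and LMO2 were higher with DB2115 and GFI1 was lower. Of the 10 factors 9 had enough counts to be tested, and 4 of these rose and 1 fell. This is 55.6% of those tested, against 64.1% of all 17219 genes tested, of which 32.7% rose and 31.3% fell, so the factors were called about as often as other genes. TAL1 was the 1 factor called with a change of at least 2-fold, as were 27.0% of all tested genes, 17.5% higher and 9.53% lower. The groups did not overlap for 7 of the 9 factors tested, 4 higher and 3 lower, and for 81.3% of all tested genes, 42.0% higher and 39.4% lower. The median log2 fold change was 0.02 over the 9 factors and 0.03 over all tested genes. A gene was called where its p from the quasi-likelihood test of edgeR, adjusted by Benjamini-Hochberg over all tested genes, was under 0.05.

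**Figure D1:**
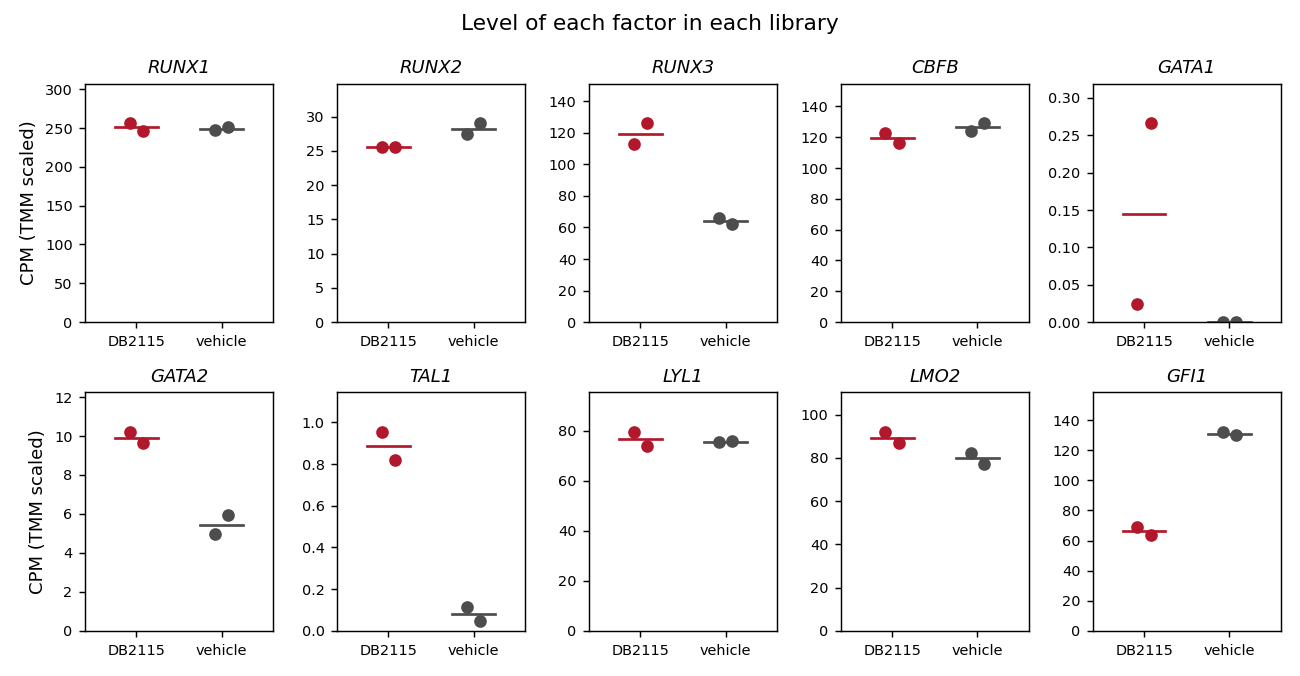
CPM after TMM scaling (y axis, from 0, a scale of its own for each gene) of the 10 factors in the 2 DB2115 libraries (red) and the 2 vehicle libraries (grey). Points are libraries and lines are group means. RUNX3, GATA2 and TAL1 stood higher and GFI1 lower in both DB2115 libraries than in either vehicle library, whereas RUNX1 and LYL1 overlapped.

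The start regions of the factors that were called are shown first, because these factors are known to bind the control regions of one another's genes. RefSeq (build GRCh38.p14) gave windows for 8 of the 10 factors, 14 windows in all, each cut here to the 250 bases before the annotated start, on the strand of the gene. Each window was searched on both strands for TGTGGT, the core of RUNX sites, for AGATAA, which GATA factors bind, and for GGAAG, which holds the core of sites for ETS factors such as PU.1. Capitals mark matches to any of these 3. For each called factor with a window, the window with the most TGTGGT matches is printed, or the first window where tied. This choice favours TGTGGT in the printed windows. The RUNX3 window (chr1:24965011-24965260, minus strand) lies before the distal start of the gene. The TAL1 window (chr1:47231716-47231965, minus strand), the GFI1 window (chr1:92486100-92486349, minus strand) and the GATA2 window (chr3:128493202-128493451, minus strand) follow.
RUNX3: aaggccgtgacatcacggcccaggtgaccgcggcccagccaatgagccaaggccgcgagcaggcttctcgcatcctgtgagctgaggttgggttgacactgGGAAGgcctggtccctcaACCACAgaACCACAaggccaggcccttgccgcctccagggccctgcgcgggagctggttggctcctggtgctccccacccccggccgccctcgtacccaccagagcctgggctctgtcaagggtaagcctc
TAL1: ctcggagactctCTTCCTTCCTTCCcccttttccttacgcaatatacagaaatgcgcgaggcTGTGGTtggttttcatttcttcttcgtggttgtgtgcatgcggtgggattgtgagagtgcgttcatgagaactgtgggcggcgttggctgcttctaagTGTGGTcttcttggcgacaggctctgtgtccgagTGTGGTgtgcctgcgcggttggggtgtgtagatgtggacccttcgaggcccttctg
GFI1: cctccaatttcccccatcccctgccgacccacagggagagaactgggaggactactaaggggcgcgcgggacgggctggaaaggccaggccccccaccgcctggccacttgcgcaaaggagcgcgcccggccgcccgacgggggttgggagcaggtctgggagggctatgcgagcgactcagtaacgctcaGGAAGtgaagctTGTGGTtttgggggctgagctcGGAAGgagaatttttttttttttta
GATA2: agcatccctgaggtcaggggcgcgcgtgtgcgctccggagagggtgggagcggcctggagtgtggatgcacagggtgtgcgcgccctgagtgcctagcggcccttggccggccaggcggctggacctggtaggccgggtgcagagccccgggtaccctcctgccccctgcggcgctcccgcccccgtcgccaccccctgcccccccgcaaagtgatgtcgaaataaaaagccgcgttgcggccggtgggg
The RUNX3 window held 2 copies of TGTGGT, both read as ACCACA on the printed strand, and 1 of GGAAG. The TAL1 window held 3 copies of TGTGGT, and 3 overlapping copies of GGAAG that read as CTTCC in 1 run. The GFI1 window held 1 copy of TGTGGT and 2 of GGAAG, and the GATA2 window held none of the 3 motifs. Over all 14 windows of the factors, 4 held TGTGGT, 1 held AGATAA and 7 held GGAAG, against 11%, 9.17% and 65.1% of all 35116 RefSeq windows of that length. The E-box CAGNTG, bound by TAL1 and LYL1 dimers, was in 3 of the 14 windows and in 42.5% of all windows, and AAATCAC, a GFI1 site, was in 0 of 14 and in 2.74%; these 2 are not capitalised. The other window with TGTGGT was the first of RUNX2, with 2 copies. The windows of RUNX3, TAL1, GFI1 and GATA2 that are not printed held no TGTGGT. The AGATAA match lay in the TAL1 window that is not printed, which held no GGAAG. The 1 RUNX1 window held none of the 3 motifs, and of these the 1 window of LYL1 held GGAAG alone. AGATAA was the only form of the GATA site searched, so a window without it may hold another form. A match describes the letters of a window and is not a measured binding site.

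RUNX1, the DNA-binding partner of CBFB that is often mutated or fused in leukaemia, had 256 and 246 CPM with DB2115, against 247 and 251 CPM in vehicle. The vehicle libraries lay between the DB2115 libraries. On the log2 scale the difference was 0.01 (SE 0.06, edgeR adjusted p = 0.874), with a 95% interval of 0.925- to 1.10-fold, and 1.24% of all tested genes had a smaller absolute log2 fold change. RUNX1 (ENSG00000159216.18) is annotated on the minus strand of chromosome 21 at 34787801 to 36004667.

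CBFB, the common partner of all RUNX proteins, had 123 and 116 CPM with DB2115, against 124 and 129 CPM in vehicle. The groups did not overlap, but by a narrow margin. The difference was -0.08 on the log2 scale (SE 0.06, edgeR adjusted p = 0.273), with a 95% interval of 0.863- to 1.04-fold. It was 0.01 when libraries were scaled by upper-quartile factors or by total counts. It was 0.39 once the trend of log2 fold changes over all tested genes on the GC content and length of transcripts was taken out, and the CBFB transcript, at 40.6% GC, is the most AT-rich of the 10. CBFB (ENSG00000067955.13) is annotated on the plus strand of chromosome 16 at 67029116 to 67101058.

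RUNX2, best known as the regulator of bone formation, had 25.6 and 25.5 CPM with DB2115, against 27.5 and 29 CPM in vehicle. Both DB2115 libraries were lower. The difference of -0.14 on the log2 scale (SE 0.08, edgeR adjusted p = 0.123) did not pass the test, and its 95% interval ran from 0.804- to 1.02-fold. RUNX2 (ENSG00000124813.21) is annotated on the plus strand of chromosome 6 at 45328157 to 45664349.

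RUNX3, the RUNX protein of lymphoid and natural killer cells and of dendritic cells, was the RUNX gene that passed the test. It had 113 and 126 CPM with DB2115, against 65.9 and 62.3 CPM in vehicle. Both DB2115 libraries lay well above both vehicle libraries. RUNX3 rose by 0.90 on the log2 scale (SE 0.07, edgeR adjusted p = 1.46e-07), a 1.87-fold rise with a 95% interval of 1.68 to 2.08. With each library left out in turn it ran from 0.81 to 0.96. It was 0.45 after the same trend was taken out, and the RUNX3 transcript has 57.2% GC. RUNX3 (ENSG00000020633.18) is annotated on the minus strand of chromosome 1 at 24899511 to 24965121.

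RUNX3 made up more of the RUNX transcripts with DB2115 than in vehicle. Levels between genes are compared per length, as CPM per kilobase of all annotated exons (RPKM). On that scale RUNX3 made up 56.2% and 59.6% of the summed RUNX1, RUNX2 and RUNX3 level in the DB2115 libraries, against 43.1% and 41.2% in the vehicle libraries. RUNX1 made up 36.8% and 33.8% with DB2115, against 47.0% and 48.2% in vehicle. RUNX2 made up 7% and 6.65% with DB2115, against 9.92% and 10.6% in vehicle. Which paralogue leads depends on the length used, because the annotated RUNX1 exons cover 15574 bases and its longest transcript 7274. Per base of the longest transcript, the ratio of RUNX1 to RUNX3 was 1.35 and 1.16 with DB2115, against 2.24 and 2.40 in vehicle, and per exon length it was 0.655 and 0.566 with DB2115, against 1.09 and 1.17 in vehicle. The ratio was lower in both DB2115 libraries with either length. The level of CBFB per exon length was 0.666 and 0.601 of the summed RUNX level with DB2115, against 0.887 and 0.933 in vehicle. Per base of the longest transcript it was 0.596 and 0.551 with DB2115, against 0.733 and 0.764 in vehicle. After the trend on GC content and length was taken out, the log2 fold changes were 0.39 for CBFB, 0.45 for RUNX3 and -0.11 for RUNX1 and RUNX2. The ratios were not computed on that scale, so a lower CBFB ratio was not shown to hold there. No test was made of these ratios, and an exact permutation test of 2 libraries against 2 cannot reach a p of 0.05.

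**Figure D2:**
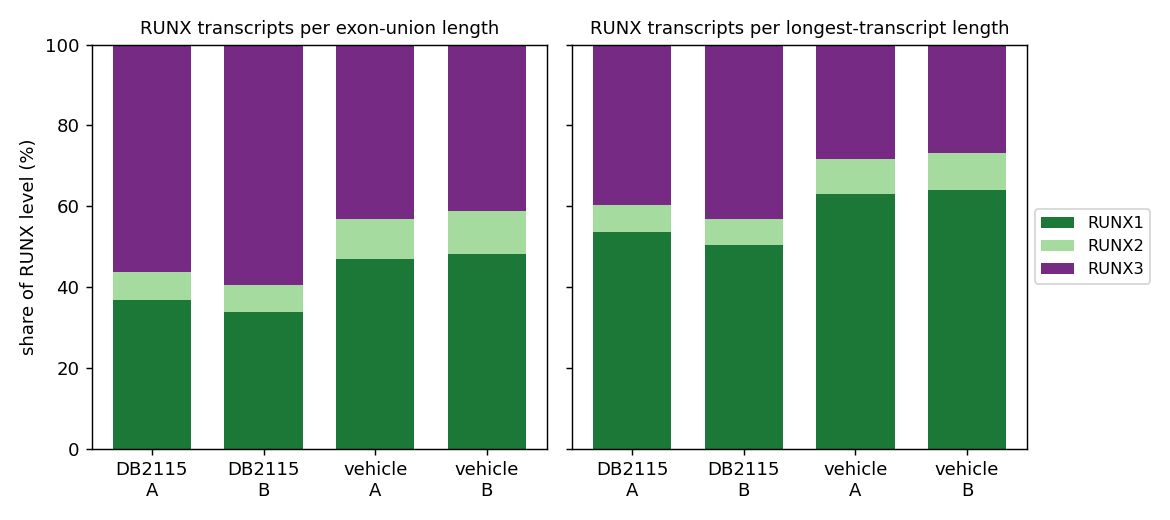
Share of RUNX1, RUNX2 and RUNX3 (stacked bars, % of their summed level) in the DB2115 and vehicle libraries, per base of all annotated exons (left) and of the longest transcript (right). The RUNX3 share was larger in both DB2115 libraries with either length, at 56.2% and 59.6%, against 43.1% and 41.2% in vehicle, per exon length.

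GATA2, the GATA factor of stem cells and early progenitors, was low and rose. It had 10.2 and 9.64 CPM with DB2115, against 4.95 and 5.93 CPM in vehicle, and the groups did not overlap. Its log2 fold change was 0.86 (SE 0.14, edgeR adjusted p = 0.000104), a 1.81-fold rise with a 95% interval of 1.48 to 2.22. It ran from 0.73 to 0.98 with each library left out in turn and was 0.35 after the same trend was taken out, at 59.7% GC. GATA2 (ENSG00000179348.11) is annotated on the minus strand of chromosome 3 at 128479427 to 128493185.

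GATA1, the GATA factor of red cells and platelets, was close to absent. It had 1 and 11 counts in DB2115 libraries A and B, 0.0244 and 0.266 CPM, against 0 counts in both vehicle libraries. It did not pass the filter on low counts. Of its 12 counts 11 lay in DB2115 library B, so no fold is given. A fit without the filter called it (adjusted p = 0.0359, edgeR). GATA1 (ENSG00000102145.13) is annotated on the plus strand of chromosome X at 48786554 to 48794311.

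TAL1, the stem cell leukaemia factor, had the largest fold change among the tested factors and was still low with DB2115. It had 0.953 and 0.821 CPM with DB2115, 39 and 34 counts, against 0.114 and 0.0484 CPM in vehicle, 4 and 2 counts. Both vehicle libraries were near the floor of 3 counts. The ratio of summed counts scaled for depth was 11.3, with an exact 95% counting interval of 4.95 to 31.8 that covers counting error only. The fit gave a log2 fold change of 3.44 (SE 0.57, edgeR adjusted p = 0.00017), and it ran from 2.90 without vehicle library B to 4.10 without vehicle library A. TAL1 passed the filter through its DB2115 counts, so it could be tested only by rising. TAL1 (ENSG00000162367.11) is annotated on the minus strand of chromosome 1 at 47216290 to 47232220.

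LYL1, the paralogue of TAL1, was far more abundant and did not pass the test. It had 79.5 and 74.0 CPM with DB2115, against 75.5 and 75.8 CPM in vehicle, with the vehicle libraries between the DB2115 libraries. On the log2 scale LYL1 differed by 0.02 (SE 0.06, edgeR adjusted p = 0.796), with a 95% interval of 0.920- to 1.12-fold. It was -0.32 after the same trend was taken out, at 57.4% GC. Per exon length the LYL1 level was 152 and 165 times that of TAL1 in the DB2115 libraries, against 1210 and 2860 times in the vehicle libraries, where TAL1 rests on 4 and 2 counts. LYL1 (ENSG00000104903.4) is annotated on the minus strand of chromosome 19 at 13099033 to 13103161.

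LMO2, the LIM-domain bridge between TAL1 or LYL1 and GATA factors, had 91.9 and 86.7 CPM with DB2115, against 82.4 and 77.3 CPM in vehicle. Both DB2115 libraries were higher, by a small margin. LMO2 rose by 0.16 on the log2 scale (SE 0.07, edgeR adjusted p = 0.045), with a 95% interval of 1.01- to 1.24-fold. The call was lost with DESeq2 (adjusted p = 0.0968) and without DB2115 library A, vehicle library A or vehicle library B (adjusted p = 0.28, 0.0888 and 0.374), and the value was -0.16 after the same trend was taken out. LMO2 (ENSG00000135363.11) is annotated on the minus strand of chromosome 11 at 33858576 to 33892289.

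GFI1, the repressor of monocyte genes in granulocyte precursors, was the factor that fell. It had 69.3 and 63.7 CPM with DB2115, against 132 and 130 CPM in vehicle. Both DB2115 libraries stood far below both vehicle libraries. GFI1 had a log2 fold change of -0.98 (SE 0.06, edgeR adjusted p = 3.28e-08), 1.97-fold lower, with each library left out in turn giving -1.06 to -0.93. It was -1.36 after the same trend was taken out, at 56.1% GC. Its paralogue GFI1B, a repressor of erythroid and megakaryocytic cells, had 3 and 2 counts with DB2115 and 0 counts in both vehicle libraries, too few to test. GFI1 (ENSG00000162676.11) is annotated on the minus strand of chromosome 1 at 92474762 to 92486876.

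**Figure D3:**
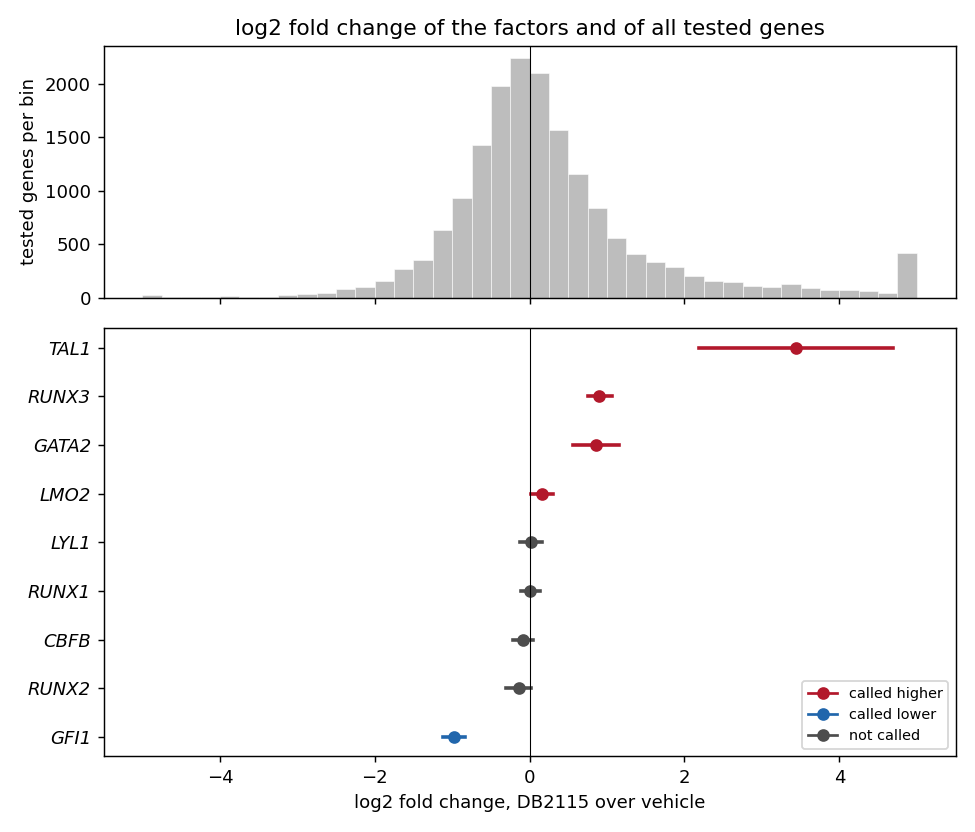
Top, histogram of log2 fold changes (DB2115 over vehicle) of all 17219 tested genes, in bins of 0.25, with values beyond -5 and 5 added to the end bins. Bottom, the 9 tested factors with 95% intervals, coloured by call. TAL1 stood at 3.44, RUNX3 at 0.90 and GATA2 at 0.86, GFI1 at -0.98, and RUNX1 and LYL1 near 0.

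Per exon length, the order of the factors differed between the groups. With DB2115 it ran from CBFB (28.9 RPKM), LMO2 (28.7), RUNX3 (26.5) and LYL1 (24.6) through GFI1 (20.1), RUNX1 (16.1), RUNX2 (3.12) and GATA2 (2.22) to TAL1 (0.156) and GATA1 (0.0967). The ranges of neighbours among the first 4 overlapped, as did those of TAL1 and GATA1, and no others did. In vehicle GFI1 led at 39.7 RPKM, followed by CBFB (30.6), LMO2 (25.7), LYL1 (24.2), RUNX1 (16.0), RUNX3 (14.2), RUNX2 (3.45), GATA2 (1.22) and TAL1 (0.0142), with GATA1 at 0 counts. No ranges of neighbours overlapped there. GFI1 thus ranked 5 with DB2115 and 1 in vehicle, and RUNX3 ranked 3 with DB2115 and 6 in vehicle. Per base of the longest transcript GFI1 ranked 6 with DB2115 and 2 in vehicle, and RUNX3 ranked 5 with DB2115 and 6 in vehicle. LYL1 ranked 1 in both groups on that scale, against 4 in both per exon length, so which factor leads depends on the length used.

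The genes around the factors were read next, since the strandedness of the libraries is not given and reads in exon bases that overlapping genes share cannot be told apart. Of the genes that overlap a factor, ENSG00000226252, on the opposite strand to TAL1, is the one that shares exon bases with it, 845 in all, and it had 0 and 2 counts with DB2115, against 0 counts in both vehicle libraries. GATA2-AS1, a non-coding RNA on the opposite strand that runs from 128489212 to 128502348 across the GATA2 start and so through the window printed above, rose with it. It had 14.2 and 14.0 CPM with DB2115, against 6.63 and 7.36 CPM in vehicle (log2 fold change 1.01, SE 0.11, edgeR adjusted p = 4.46e-06). The exons of GATA2-AS1 and GATA2 share 0 bases. RUNX3-AS1, on the opposite strand inside the annotated span of RUNX3, had 12 and 26 counts with DB2115, against 0 counts in both vehicle libraries (adjusted p = 0.000473, edgeR), and shares 0 exon bases with RUNX3. The exact 95% counting interval of its ratio, scaled for depth, began at 9.11. It too could be tested only by rising.

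The nearest protein-coding genes on each side moved in both directions. TRMT1, a tRNA methyltransferase 1741 bases from LYL1, fell (log2 fold change -1.20, adjusted p = 3.66e-09, edgeR) where LYL1 did not pass the test, and NFIX, 237 bases away on the other side, had a value of -0.06. SETD4, next to RUNX1, fell (-1.36), as did SUPT3H, which overlaps RUNX2 on the opposite strand (-0.56). CDC5L, 877731 bases from RUNX2 on the same side as SUPT3H, had a value of -0.09 and did not pass the test. The 3 RUNX genes each have a CLIC gene as a neighbour. CLIC4 beside RUNX3 fell (-0.31), and CLIC5 beside RUNX2 had 0 counts throughout. CLIC6 beside RUNX1 did not pass the test (1.45, adjusted p = 0.0525, edgeR). It was low, with 13 and 17 counts with DB2115, against 6 and 4 counts in vehicle. SYF2, on the other side of RUNX3, rose with a log2 fold change of 0.34, and HDAC6 next to GATA1 rose with one of 0.65. Beside CBFB, CES4A rose (1.38, adjusted p = 0.0294, edgeR) and PHAF1 did not pass the test (0.25). CES4A was low, with 19 and 32 counts with DB2115, against 8 and 10 counts in vehicle. STIL beside TAL1 (-0.10), RPN1 beside GATA2 (0.04) and RPAP2 beside GFI1 (-0.06) did not pass the test, whereas EVI5 on the other side of GFI1 fell (-0.64). FBXO3 (-0.45) and CAPRIN1 (-0.39) on the sides of LMO2 fell. Overlapping genes on the opposite strand that did not pass the test were ENSG00000271857 with RUNX2 (-0.19) and ENSG00000184566 with LMO2 (-0.11).

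**Figure D4:**
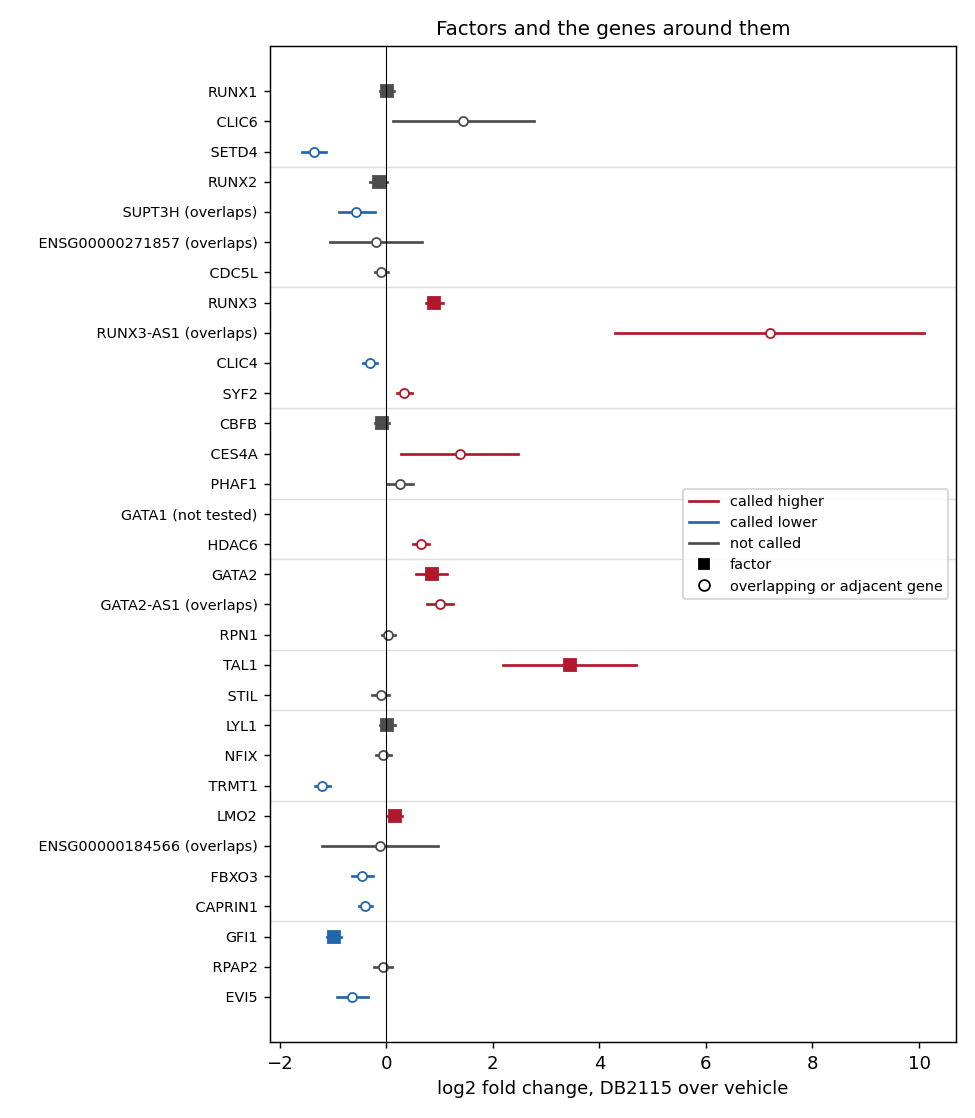
Log2 fold change (DB2115 over vehicle, with 95% intervals) of each factor (squares) and of the tested genes that overlap it or are its nearest protein-coding neighbours (open circles), coloured by call. GATA2 (0.86) and GATA2-AS1 (1.01) rose, whereas TRMT1 (-1.20) beside LYL1 and SETD4 (-1.36) beside RUNX1 fell with the factor at 0.02 and 0.01.

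Genes of proteins that work with the factors moved in both directions. Of 36 partner and corepressor genes 34 were tested, 19 rose and 6 fell, which is 73.5% called, against 64.1% of all tested genes, with a median log2 fold change of 0.38, against 0.03. LDB1, the scaffold that binds LMO2, rose, and so did SSBP3 and SSBP2, single-stranded DNA-binding proteins known to stabilise it. LDB1 had 96.8 and 89.4 CPM with DB2115, against 62.0 and 60.1 CPM in vehicle (log2 fold change 0.61, adjusted p = 3.71e-06, edgeR). SSBP3 had 172 and 166 CPM with DB2115, against 48.2 and 50.3 CPM in vehicle (log2 fold change 1.78, adjusted p = 1.19e-10, edgeR), and SSBP2 had a log2 fold change of 1.33, whereas SSBP4 fell (-0.20).

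The E-proteins, the dimer partners of TAL1 and LYL1, moved both ways. TCF3, which encodes E2A, had 549 and 540 CPM with DB2115, against 424 and 416 CPM in vehicle (log2 fold change 0.37), TCF12 fell (-0.25), and TCF4 did not pass the test (-0.02). ID1, ID2 and ID3, whose products bind E-proteins and keep them from DNA, rose. ID2 had 59.0 and 51.8 CPM with DB2115, against 11.1 and 11.5 CPM in vehicle (log2 fold change 2.29, adjusted p = 2.51e-10, edgeR), and ID1 and ID3 had log2 fold changes of 1.21 and 1.75 at 2.37 CPM or less. ID4 had too few counts to test. ZFPM1, the GATA cofactor FOG1, rose (0.51), and the ETO-family corepressor CBFA2T3, a known part of TAL1 complexes, had a value of -0.08 and did not pass the test.

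The corepressors recruited by GFI1 also split. KDM1A, which encodes LSD1, had 115 and 125 CPM with DB2115, against 186 and 195 CPM in vehicle (log2 fold change -0.66, adjusted p = 1.06e-06, edgeR). HDAC2, a deacetylase of the same complex, had 155 and 149 CPM with DB2115, against 279 and 285 CPM in vehicle (log2 fold change -0.90, adjusted p = 2.54e-08, edgeR), while its paralogue HDAC1 rose (0.54). RCOR2, a CoREST paralogue, had 61.8 and 65.1 CPM with DB2115, against 20.3 and 17.3 CPM in vehicle (log2 fold change 1.76, adjusted p = 1.71e-09, edgeR), and RCOR1, the main CoREST gene, rose by less (0.19). The complex members HMG20B (0.88) and PHF21A (0.97) rose, and GSE1 (-0.34) fell. Of the Groucho family genes, TLE1 (0.35), TLE3 (0.43) and TLE5 (0.54) rose, TLE4 (-0.34) fell, and TLE2 did not pass the test (0.78). The coactivators EP300 (0.73) and CREBBP (0.68) rose.

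**Figure D5:**
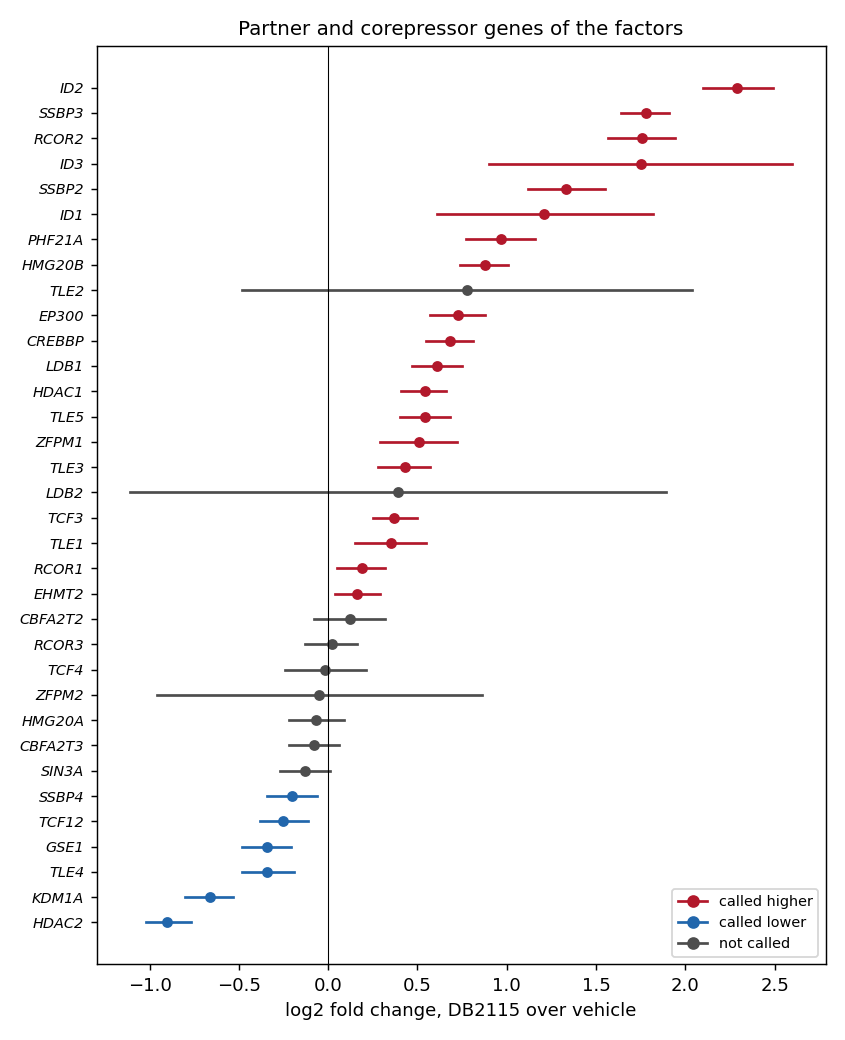
Log2 fold change (DB2115 over vehicle, with 95% intervals) of the 34 tested partner and corepressor genes, coloured by call. ID2 (2.29), SSBP3 (1.78) and RCOR2 (1.76) were the highest called, and HDAC2 (-0.90) and KDM1A (-0.66) the lowest.

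Other members of the same families were mostly silent. Of 11 listed, 4 were tested and 3 rose, which is 75.0% called, against 64.1% of all tested genes, and with a filter of 1 CPM in 3 libraries 1 rose. LMO4 had 191 and 172 CPM with DB2115, against 119 and 118 CPM in vehicle (log2 fold change 0.62, adjusted p = 2.62e-06, edgeR). LMO1, a T-cell leukaemia oncogene, had 68 and 53 counts with DB2115, against 3 and 7 counts in vehicle, a ratio of 11.2 with an exact 95% counting interval of 5.90 to 24.0. GATA4 had 11 counts in each DB2115 library and 0 counts in both vehicle libraries, and the exact 95% counting interval of its ratio began at 5.09. GATA4 and LMO1 passed the filter through their DB2115 counts and could be called only by rising. GATA6 did not pass the test (-0.24, adjusted p = 0.34, edgeR), and GATA3, GATA5, TAL2, LMO3, GFI1B, NHLH1 and NHLH2 were too low to test.

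Genes known as RUNX1 targets changed in both directions. Of 22 listed 18 were tested, 11 rose and 5 fell, which is 88.9% called, against 64.1% of all tested genes, with a median log2 fold change of 0.44, against 0.03. CSF1R (3.76), MPO (2.46) and CDKN1A (2.28) rose, and ELANE (-1.57), CDK6 (-1.19) and GFI1 itself (-0.98) fell. Of 17 genes reported as repressed by GFI1, largely in mice, 16 were tested, 9 rose and 5 fell (87.5% called), with a median of 0.78. CSF1R, CDKN1A and JUN (2.44) rose, as did HOXA9 (0.40) and MEIS1 (0.71), whereas IRF8 (-1.49), EGR1 (-3.26) and E2F5 (-2.38) fell. The list holds GFI1 itself among those that fell, and it shares CSF1R, CDKN1A, SPI1 and GFI1 with the RUNX1 target list. Other lists overlap too, so the same rise can count in several. ID1 and ID2 are also in the partner list. Among the RUNX1 targets, NFE2 is also in the erythroid list and TREML1, MYL9 and ALOX12 in the megakaryocyte list. KIT is in the mast cell and the stem cell lists.

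Genes of the lineages that GATA and TAL1 factors are known for were a mixture. Of 29 erythroid genes 9 were tested, and 6 rose and 1 fell, which is 77.8% called, against 64.1% of all tested genes. The membrane skeleton genes ANK1 and SPTB rose with log2 fold changes of 3.25 and 3.03, and NFE2, a factor shared by erythroid and megakaryocytic cells, had 106 and 97.2 CPM with DB2115, against 45.3 and 40.8 CPM in vehicle (1.24), while CA2 fell (-1.0). The list summed to 232 and 224 CPM with DB2115, against 136 and 128 CPM in vehicle. Of 24 megakaryocyte genes 13 were tested, and 8 rose and 1 fell (69.2% called, against 64.1% of all tested genes), with a sum of 108 and 91.4 CPM with DB2115, against 78.2 and 72.8 CPM in vehicle. ITGA2B, the integrin CD41, had 241 and 245 counts with DB2115, against 3 and 0 counts in vehicle, a ratio of 150 with an exact 95% counting interval of 51.2 to 732. GP9 (2.49) and CD9 (2.66) rose and F2R fell (-1.91), and PF4 and PPBP had no count.

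Of 22 mast cell, basophil and eosinophil genes 9 were tested, and 5 rose and 2 fell (77.8% called, against 64.1% of all tested genes), with a sum of 382 and 347 CPM with DB2115, against 388 and 371 CPM in vehicle. ALOX15 (3.93) and CD63 (0.69) rose and RNASE2 (-0.86) fell. Of 22 stem and progenitor genes 9 were tested, and 5 rose, which is 55.6% called, against 64.1% of all tested genes, with CD38 lowest among the others at -0.38 (edgeR adjusted p = 0.0562) and with CD34 at 1 count with DB2115 and 2 counts in vehicle. ADGRG1, the adhesion receptor GPR56, had 408 and 407 counts with DB2115, against 0 and 1 counts in vehicle. This is a ratio of 757 with an exact 95% counting interval of 135 to 29900. MLLT3 rose with a log2 fold change of 0.53. It encodes AF9, and counts per gene do not tell its own transcripts from those of the MLL-AF9 fusion. In these 4 lists a gene silent in vehicle could be tested only by rising. The sums of the erythroid and megakaryocyte lists moved with GATA2 and TAL1, and their part in those changes was not tested.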

How the data were processed

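RNA was sequenced from MOLM-13 cells in DB2115 or vehicle. The table deposited by the authors holds read counts per gene, taken as raw because they are whole numbers with unequal totals. Of 3 columns per group, the one close to the sum of the others was left out. FastQC, STAR and DESeq2 with the genome hg38 appear in the submitters' processing notes, without versions. For strandedness, annotation, counter and aligner settings: not given in the sources used here. Of 58381 identifiers, 58261 had a symbol. Coordinates, exon lengths and transcript GC content come from GENCODE release 29 (GRCh38), promoter sequences from RefSeq. Genes that passed filterByExpr (minimum count 10, minimum total 15), 17219 in all, were compared with TMM scaling and glmQLFit and glmQLFTest in edgeR 4.0.16 (R 4.3.3), treatment being the only term. Standard errors and 95% intervals come from each log2 fold change divided by the root of its F statistic. For genes near 0 counts in vehicle a ratio of summed counts with an exact interval is given (scipy 1.17.1). The GC and length trend was fitted by loess (span 0.5) over all tested genes, with the median kept at that of the uncorrected values. The script was tested on simulated counts. The factors and gene lists were chosen with earlier results of these data known. Every factor is named, with up to 3 called genes per direction and list (smallest adjusted p, mean of at least 1 CPM), overlapping genes and nearest protein-coding neighbours. Other list genes were picked after their values were seen. Alternatives used other scalings and filters, DESeq2 1.42.0, limma-voom (limma 3.58.1), each library left out, a block on column letters, all 6 columns and no mitochondrial genes. Some genes that this rule names are not reported here.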

Additional observations from a re-analysis of the deposited data

How the results depend on the processing

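RUNX3, GATA2, TAL1 and GFI1 kept their direction and their call under every alternative that could be fitted with a test; TAL1 did not pass the filter of 1 CPM in 3 libraries. Leaving out each library in turn gave log2 fold changes of -0.03 to 0.03 for RUNX1, -0.19 to -0.13 for RUNX2, 0.81 to 0.96 for RUNX3, -0.14 to -0.05 for CBFB, 0.73 to 0.98 for GATA2, 2.90 to 4.10 for TAL1, -0.05 to 0.06 for LYL1, 0.09 to 0.20 for LMO2 and -1.06 to -0.93 for GFI1. Around 0 the sign of RUNX1 turned without a filter on low counts (-0.0016) and with all 6 columns (-0.0088), and that of CBFB with upper-quartile factors (0.01), total counts (0.01) and 1 CPM in 3 libraries (0.0021). LMO2 lost its call with DESeq2 size factors (0.16, adjusted p = 0.0571), no filter (0.15, adjusted p = 0.0965) and DESeq2 (0.16, adjusted p = 0.0968). With all 6 columns, which count the pooled column as a library, RUNX2 (-0.17) and CBFB (-0.10) were called and 3 factors fell. With the GC and length trend removed the values were -0.11 for RUNX1, 0.45 for RUNX3, 0.39 for CBFB, 0.35 for GATA2, -0.32 for LYL1, -0.16 for LMO2 and -1.36 for GFI1; the cause was not tested. The ratio of RUNX1 to RUNX3 averaged 1.26 with DB2115 and 2.32 in vehicle per longest transcript, an alternative chosen after seeing the data, against 0.611 and 1.13 per exon length.

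With a library left out, called counts ran from 3 to 4 factors higher, 2 to 3 family genes higher, 6 to 8 megakaryocyte genes higher and 1 to 2 lower (2 without DB2115 library A or vehicle library B), 5 to 6 mast cell genes higher and 1 to 3 lower (1 without DB2115 library B or vehicle library A), and 5 to 6 stem cell genes higher and 0 to 1 lower (1 without DB2115 library B). With 1 CPM in 3 libraries, which leaves out genes silent in 1 group, 1 family gene, 4 megakaryocyte, 1 mast cell and 2 stem cell genes rose, and 0 megakaryocyte and 1 mast cell genes fell. Megakaryocyte genes lower numbered 2 with DESeq2 size factors or no filter and 3 with all 6 columns, where 1 family and 1 stem cell gene fell. The labels number replicates but the columns carry letters, whose deviations correlated at 0.016 between groups, so no pairing was taken; a replicate block on the letters left the calls of the 9 tested factors as they were, at 0.16 for LMO2 (adjusted p = 0.0121), with 5810 genes higher and 5614 lower. Counts below about 10 per library limit GATA1 and TAL1.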
